A study of Homo sapiens with 2 samples.

Results

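Binding of ATF1, a transcription factor related to CREB1, was mapped in HCT116, a human colon carcinoma line. The regions described here are the listed ATF1 peaks whose gene name in the deposited table is that of a microRNA, chosen by name alone: names that begin with MIR or MIRLET and a digit, without the HG that marks a host gene. Of 15064 listed peaks, 70 (0.465%) met this rule, on 18 chromosomes. In 1 library chromatin was precipitated with an antibody that the labels give as one to 3xFlag-ATF1, and they do not say how a tagged ATF1 was brought into the cells. The other sample, input DNA of the same line with no antibody, was not analysed here. There was no replicate, so every value describes this library, no test between conditions was possible and no p-value is given.

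MicroRNAs are short RNAs that pair with messenger RNAs mainly through their seed, bases 2 to 8 of the mature strand, and lower the translation or stability of those messages. They are cut from hairpins within longer transcripts, so the promoter that drives a microRNA often lies at the start of a host gene or well upstream of the hairpin. ATF1, CREB1 and CREM bind the cAMP response element (CRE), the palindrome TGACGTCA, or its half-site TGACG. The locus of miR-212 and miR-132 is a textbook target of CREB in neurons.

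The strongest microRNA peak, at MIR4757, has the CRE inside the hairpin itself. The RefSeq microRNA table (GRCh38.p14) used here holds a hairpin for 57 of the 70 genes. Among its 1560 hairpins only MIR4757 holds the full CRE, and it holds it at bases 20 to 27 and again at bases 50 to 57. The hairpin search was added after the sequence had been seen. The hairpin lies at chr2:19348429-19348505 on the plus strand, within the annotated gene OSR1, which encodes a zinc finger transcription factor. It is shown with both elements in capitals, followed by its 2 mature strands with the seed in capitals.
MIR4757: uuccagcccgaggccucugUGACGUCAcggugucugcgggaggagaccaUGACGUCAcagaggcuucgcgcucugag
hsa-miR-4757-5p: aGGCCUCUgugacgucacggugu
hsa-miR-4757-3p: cAUGACGUcacagaggcuucgc

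The peak at MIR4757 held 334 tags (exact 95% Poisson interval 299.1 to 371.8) and reached 27.96-fold enrichment, a ratio given by the authors, who do not name its denominator in the file. Its fold enrichment was above that of 98.1% of all listed peaks and its tag count above that of 78.0%. The summit lay 95 bp upstream of the hairpin, 118 and 148 bp from the centres of its CREs. The nearest end of a protein-coding gene, that of OSR1, was 3460 bp away. No other member hairpin held the full CRE, and 3 of 57 (5.26%) held the half-site, beside 77 of 1560 hairpins (4.94%) in all. Those 3 were MIR4757, MIR1193 and MIR6077.

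In 3 peaks the full CRE lay in the promoter of a gene that starts inside the peak. Promoter windows, from RefSeq (GRCh38.p14), run from 250 bases before to 50 bases after a gene start. The 3 windows are those of WSB1 (plus strand, chr17:27293864-27294163), in the peak at MIR4522; of LOC124903896 (minus strand, chr17:2049900-2050199), in the peak at MIR132; and of TRIP6 (plus strand, chr7:100867137-100867436), in the peak at MIR6875. They are shown 5′ to 3′ with the CRE in capitals, because they hold the factor's known element in a microRNA peak. The first 2 windows also contain the microRNA hairpin, and the TRIP6 window does not contain MIR6875.
WSB1: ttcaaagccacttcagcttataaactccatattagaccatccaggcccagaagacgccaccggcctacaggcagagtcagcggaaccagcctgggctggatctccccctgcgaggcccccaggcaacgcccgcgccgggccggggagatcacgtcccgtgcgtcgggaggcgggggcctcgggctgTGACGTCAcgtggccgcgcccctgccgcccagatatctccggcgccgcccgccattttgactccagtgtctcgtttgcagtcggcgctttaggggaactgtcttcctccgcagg
LOC124903896: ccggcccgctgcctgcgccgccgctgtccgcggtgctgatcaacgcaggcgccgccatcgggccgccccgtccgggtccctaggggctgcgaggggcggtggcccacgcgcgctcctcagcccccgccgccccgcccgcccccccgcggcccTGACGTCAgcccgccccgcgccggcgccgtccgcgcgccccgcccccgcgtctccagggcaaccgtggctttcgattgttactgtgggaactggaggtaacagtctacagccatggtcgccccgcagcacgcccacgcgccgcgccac
TRIP6: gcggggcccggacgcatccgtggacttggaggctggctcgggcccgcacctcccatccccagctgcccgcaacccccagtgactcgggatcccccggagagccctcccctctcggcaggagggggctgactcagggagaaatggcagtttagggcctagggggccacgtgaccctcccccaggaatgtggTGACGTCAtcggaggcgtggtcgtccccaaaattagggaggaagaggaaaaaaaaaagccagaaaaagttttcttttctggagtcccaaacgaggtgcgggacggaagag

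The WSB1 window contains the whole MIR4522 hairpin, on the opposite strand to WSB1, which encodes a subunit that recruits substrates to a ubiquitin ligase. The summit of that peak lay 8 bp from the centre of the CRE, 69 bp from the WSB1 start and 49 bp upstream of MIR4522. The LOC124903896 window contains the whole MIR132 hairpin on the same strand, and its CRE was 428 bp from the summit. In the TRIP6 window the CRE was 172 bp from the summit. TRIP6 encodes a LIM domain protein of focal adhesions.

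The peak at MIR132 held the most tags of the 70, 1342 (interval 1271 to 1416), and the highest score, 3100. Its tag count was above that of 99.7% of all listed peaks, while its 14.34-fold enrichment was above that of 89.3%. The peak (chr17:2049235-2052196) also covered MIR212, the other microRNA of this CREB target locus, which the table does not name. The summit was 92 bp from MIR212 (chr17:2050271-2050380) and 464 bp upstream of MIR132. Both microRNAs share a seed, shown in capitals.
hsa-miR-132-3p: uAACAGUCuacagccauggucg
hsa-miR-212-3p: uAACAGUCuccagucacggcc

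The median fold enrichment of microRNA peaks was close to that of all listed peaks, and their median tag count was lower, with an interval that reaches the median of all. Their median fold enrichment was 7.23 (quartiles 5.96 and 9.85, interval of the median 6.87 to 8.03), beside 6.97 over all listed peaks. Their median tag count was 112 (quartiles 47.25 and 294.5, interval of the median 66.0 to 162), beside 162. Their range was 3.17- to 27.96-fold and 21 to 1342 tags. Of the 70, 17 (24.3%, exact Clopper-Pearson interval 14.8 to 36.0%) were at least 10-fold, near the 23.9% of all listed peaks, so this count does not set them apart. Fewer than 100 tags were counted in 32 of them (45.7%, interval 33.7 to 58.1%), which is not set apart from the 36.5% of all listed peaks. Peak length was alike, with medians of 1528 and 1551 bp.

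**Figure D1:**
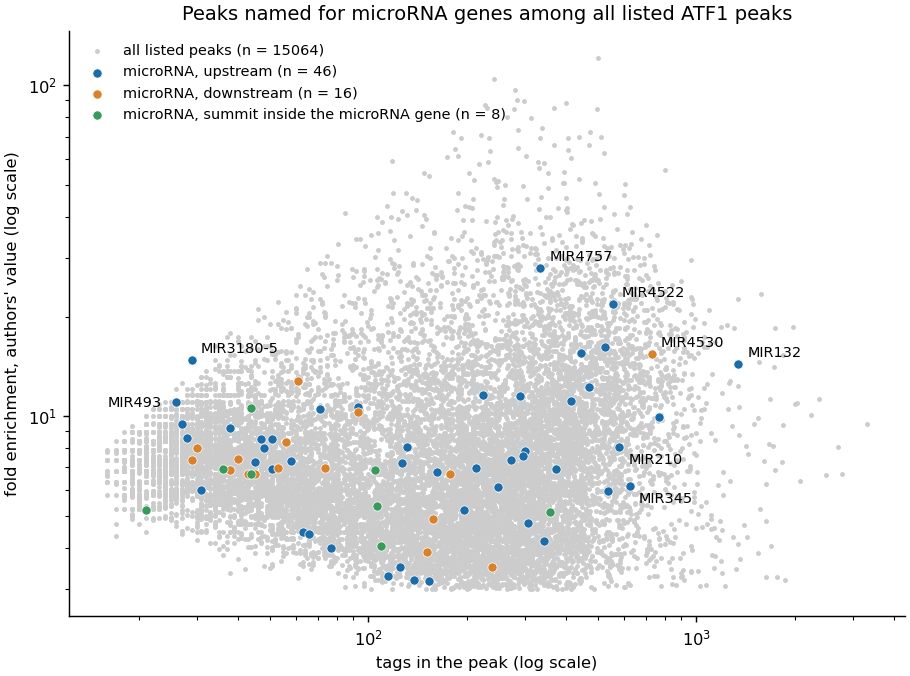
Tags (x axis, log scale) and the authors' fold enrichment (y axis, log scale) of each of the 15064 listed peaks (grey) and of the 70 microRNA peaks, coloured by class. MIR4757 (27.96-fold, 334 tags) and MIR132 (1342 tags) mark the upper and right edges of the microRNA peaks, and MIR3180-5 and MIR493 are high in fold enrichment with 29 and 26 tags.

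Some of the strongest microRNA peaks held many tags and others few. Of the 10 highest in fold enrichment, 6 were also among the 10 with most tags: MIR4522, MIR1204, MIR4442, MIR4530, MIR132 and MIR564. Over the 70, Spearman's rho between fold enrichment and tags was 0.07, between tags and peak length 0.86, and between tags and the authors' score 0.70 (all values of 1 library, so given as descriptions). The 17 peaks of at least 10-fold fell into 10 with over 200 tags and 7 with under 100. The same split was not made over all listed peaks, so it is not read as a trait of microRNA peaks. The 7, listed after their values were seen, were MIR3180-5, MIR6077, MIR493, MIR3124, MIR3180-4, MIR4468 and MIR5188.

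Of the 9 peaks next in fold enrichment after MIR4757, those at MIR4522, MIR4442, MIR564 and MIR6125 had the summit within 100 bp of the start of a protein-coding gene. The same share over all listed peaks was not computed, so this is not read as a trait of microRNA peaks. MIR4522 reached 21.85-fold with 557 tags. MIR1204, within the long non-coding RNA gene PVT1, reached 16.20-fold with 528 tags, with its summit 1446 bp upstream of the microRNA gene. The peak at MIR4442 had 15.52-fold and 446 tags, with its summit 85 bp from a start of TOP2B, a DNA topoisomerase. MIR4530 had 15.41-fold and 731 tags, in a long peak of 4706 bp. Its summit lay 212 bp from the far end of ZFP36 and 2772 bp from the start of that gene, which encodes an RNA-binding protein that speeds the decay of cytokine messages.

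The peak at MIR564 had 12.27-fold and 469 tags, with the summit 66 bp from the start of TMEM42. The peak at MIR6125 had 11.62-fold and 223 tags, with the summit 85 bp from the start of USP15, a deubiquitinase. Those at MIR4442, MIR564 and MIR6125 all had the summit between 40 and 53 bp upstream of the microRNA gene. In these 3 peaks the summit thus lay beside both the microRNA gene and the start of a protein-coding gene.

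The other members of the 10 strongest were MIR3180-5 (14.74-fold), MIR132 and MIR6077 (12.74-fold). MIR3180-5 had only 29 tags (interval 19.4 to 41.6) and MIR6077 61 tags (46.7 to 78.4). The score of MIR3180-5 was above that of 46.5% of all listed peaks, although its fold enrichment was above that of 89.8%. Its mature strand is also made from MIR3180-4, a member with 10.58-fold and 44 tags, and from other copies. No source used here says how reads that fit several copies were placed. The values of both MIR3180 members are therefore uncertain. In all, 5 members have a mature sequence that another gene also makes, and the other 3 are MIR3199-2, MIR4520-2 and MIR8071-1. For MIR3199-2 and MIR4520-2 the other gene, MIR3199-1 or MIR4520-1, is annotated at the same place, so it is no separate copy. For MIR8071-1 the values may be uncertain in the same way as for the MIR3180 members. The strand shared by both MIR3180 members is printed once, with its seed in capitals.
hsa-miR-3180: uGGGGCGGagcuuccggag

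By tags, MIR132 was followed by MIR378D2 (771 tags, 9.97-fold), MIR4530 (731 tags), MIR345 (625 tags, 6.14-fold) and MIR210 (582 tags, 8.05-fold). The summit at MIR378D2 lay 159 bp from an end of PDP1, a mitochondrial phosphatase gene. MIR345 had more tags than 95.9% of all listed peaks and a fold enrichment above only 38.7%. Its summit was 135 bp from the start of SLC25A29, a mitochondrial carrier gene on the opposite strand. The lowest fold enrichments were those of MIR4309 (3.17-fold, 153 tags), MIR4634 (3.20-fold, 138 tags) and MIR5691 (3.30-fold, 115 tags), near the lowest value in the table, 3.

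**Figure D2:**
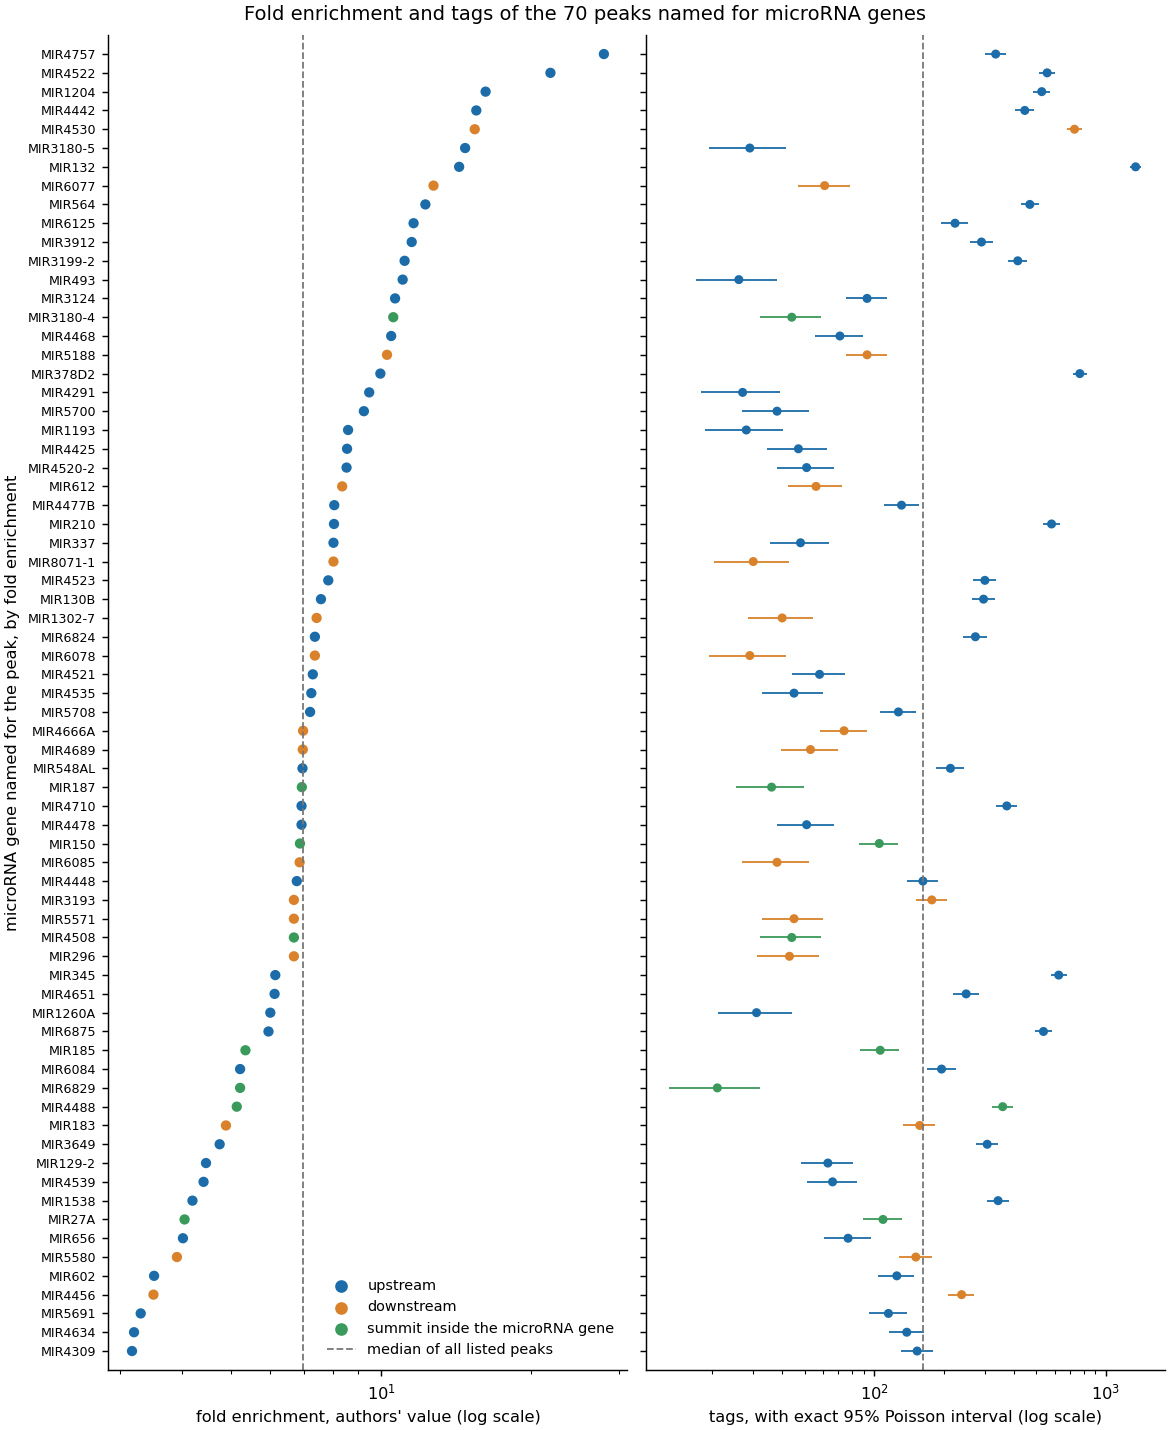
Fold enrichment (left, log scale) and tags with exact 95% Poisson intervals (right, log scale) of the 70 microRNA peaks, ordered by fold enrichment and coloured by class, with dashed lines at the medians of all listed peaks (6.97-fold and 162 tags). The orders by fold enrichment and by tags differ: MIR132 and MIR378D2 hold most tags, and MIR6829 fewest, 21.

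Most microRNA peaks were classed as upstream of the microRNA gene. The deposited classes were upstream for 46 (65.7%, interval 53.4 to 76.7%), downstream for 16 (22.9%, interval 13.7 to 34.4%) and intronic for 8 (11.4%, interval 5.07 to 21.3%). None was exonic, which allows a share of up to 5.13% (upper bound of the exact interval). Over all listed peaks 19.9% were upstream, 2.70% downstream, 33.9% intronic and 43.5% exonic. Among peaks outside their gene, 46 of 62 were upstream here and 2996 of 3403 over all listed peaks. A lean to the upstream side is therefore not particular to microRNA peaks. Outside the named gene were 62 of 70 (88.6%), against 22.6% of all listed peaks. MicroRNA genes are short, between 43 and 153 bp with a median of 79.5 bp, so a summit has little room inside one, and the difference in share cannot be told apart from that in gene length. The 8 intronic peaks were those with the summit inside the microRNA gene.

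The deposited positions of all 70 microRNA genes equalled those in RefSeq. For the 64 with an entry in the RefSeq microRNA table, the strand given there put all 64 summits on the side that the class names. The summit was within 100 bp of the microRNA gene in 20 of 70, within 500 bp in 35 and within 1 kb in 48, with a median of 525.5 bp. Upstream summits lay a median of 548 bp away and downstream summits 1367.5 bp. Of the peaks, 42 overlapped the microRNA gene and 28 did not reach it.

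By class, median tags were 157.5 upstream and 58.5 downstream, and median fold enrichments 7.71 and 6.98. Among the downstream peaks MIR4530, with its summit 4 bp beyond the microRNA gene, was the highest in both. The 8 peaks with the summit in the microRNA gene had a median of 74.5 tags and 6.02-fold. Tag ranges overlapped widely, from 26 to 1342 upstream, 29 to 731 downstream and 21 to 358 inside.

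**Figure D3:**
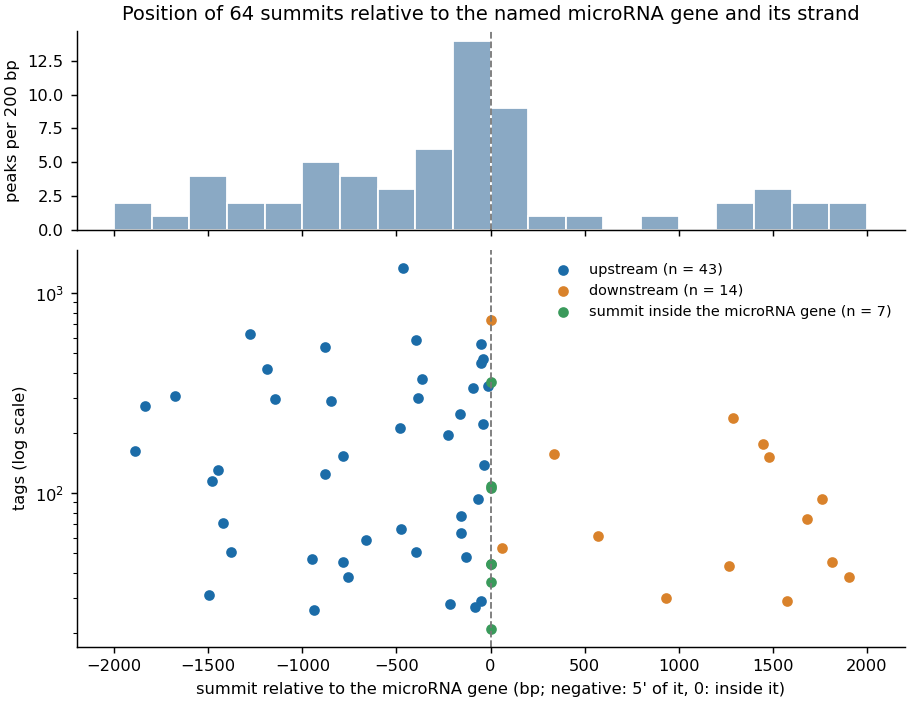
Distance of the summit from the named microRNA gene along its strand (x axis, bp; negative is 5′ of the gene, 0 inside it) for the 64 members with a strand, as peaks per 200 bp (top) and against tags on a log scale (bottom). Summits gather close to the gene and on its 5′ side, and downstream summits lie mostly over 1 kb away.

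The 8 summits inside a microRNA gene were at MIR3180-4, MIR187, MIR150, MIR4508, MIR185, MIR6829, MIR4488 and MIR27A. MIR4488 had the most tags of them (358, 5.14-fold), and its summit lay 109 bp from the start of LRRC10B. MIR185, within TANGO2, had 106 tags and 5.35-fold. MIR187 had 36 tags and 6.94-fold, with the nearest protein-coding gene end 67855 bp from the summit. MIR150, known as a microRNA of lymphocytes, had 105 tags and 6.88-fold, close to the median of all listed peaks.

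The share of microRNA peaks at the ends of protein-coding genes was lower than that of listed peaks in general, and its size depended on the peaks and window used. The summit was within 1 kb of such an end in 25 of 70 (35.7%, interval 24.6 to 48.1%), against 56.1% of all listed peaks. With only peaks scoring at or above the table's median, the share was 57.7% of 26 (interval 36.9 to 76.6%), against 77.1% of all listed peaks with such scores. With a window of 5 kb it was 58.6%, against 72.0%. As many, 25, were more than 10 kb from any such end, where 20.8% of all listed peaks were. Since each peak carries 1 gene name, a peak shared by a microRNA and a protein-coding gene may be listed under either, and the part of naming in these shares was not tested. Median tags were 273 in the 25 gene-end members and 56 in the 25 distant ones, at 6.97- and 6.94-fold. Over all listed peaks the same medians were 241 tags and 7.49-fold, and 49 tags and 6.90-fold.

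The strongest members more than 10 kb from a protein-coding gene end were MIR1204, MIR6077, MIR493 (11.05-fold, 26 tags), MIR4291 (9.47-fold, 27 tags) and MIR4425 (8.55-fold, 47 tags). Apart from MIR1204 with 528 tags, these held between 26 and 61 tags. The summit at MIR493 lay 11630 bp from an end of RTL1.

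Whether a gene start lay inside the peak went with the tag count. Of the 66 members on chromosomes in the promoter table, 19 (28.8%, interval 18.3 to 41.3%) held a gene start that is in that table, against 55.4% of all listed peaks on those chromosomes. Chromosome 8 is not covered there, so its 4 members, MIR1204 and MIR378D2 among them, are not in this split. Those 19 had a median of 358 tags (range 63 to 1342), and 15 of them had over 200. The 47 others had a median of 61 tags (range 21 to 373), and 7 of them had over 200. The table does not cover every gene: 5 of the 47 (10.6%), at MIR150, MIR5571, MIR4651, MIR6084 and MIR1538, held an end of a protein-coding gene outside it, as did 16.6% of all listed peaks without a start. The summit at MIR6084 lay 7 bp from an end of PINK1, that at MIR1538 83 bp from one of NFAT5 and that at MIR4651 119 bp from one of POR. Both shares of peaks with a start may therefore be too low, and without those 5 the median of the others was 57.0 tags and 6.98-fold. Median fold enrichment was 8.05 and 6.93. The peaks with a start were also longer, with medians of 2009 and 1256 bp, and the part of length in the tag counts was not tested. Over all listed peaks the medians were 246 and 64 tags, and 7.58- and 6.58-fold, so microRNA peaks without a gene start resembled other peaks without one in both values. MIR4757, the strongest microRNA peak, was in the group without a start in the table.

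**Figure D4:**
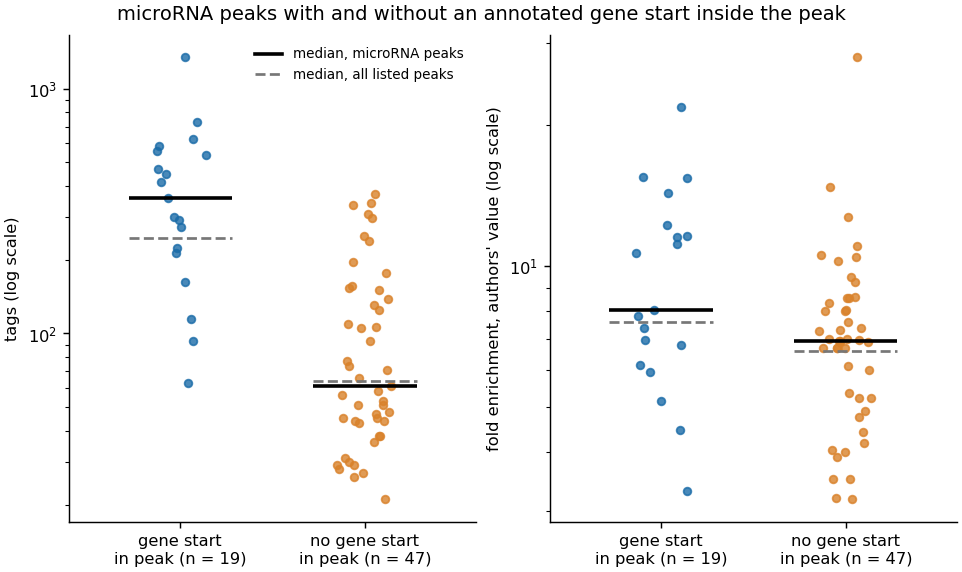
Tags (left) and fold enrichment (right), on log scales, of the 66 microRNA peaks on chromosomes in the promoter table, split by whether a gene start of that table lies inside the peak; each point is a peak, black lines are medians (358 and 61 tags; 8.05- and 6.93-fold) and dashed lines the medians of all listed peaks split the same way. Tags separate the groups more than fold enrichment does, and both ranges overlap.

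The 22 promoter windows in these 19 peaks belonged to 20 genes. Among them were NPM1 (nucleophosmin, in the peak at MIR3912), TAOK1 (a kinase, MIR4523), PARL (a mitochondrial protease, MIR4448), PGM2L1 (MIR548AL), SLC26A6 (an anion exchanger, MIR6824), PITPNB (a phospholipid carrier, MIR3199-2) and MIR210HG, the host transcript of MIR210. At MIR4448 the summit was 31 bp from the PARL start and 1889 bp from the microRNA gene. At MIR6824 it was 71 bp from the SLC26A6 start and 1834 bp from the microRNA gene. In both, the gene start was far closer to the summit than the microRNA that the table names.

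Motif letters in the 22 windows were searched on both strands: TGACGTCA (CRE), TGACG (its half-site, contained in it), TGACTCA (AP-1), CCAAT and GGGCGG (the GC box). The half-site was in 8 of 22 (36.4%, interval 17.2 to 59.3%), against 24.6% of all 35116 windows and 36.0% of the 12523 windows whose gene start lies in any listed peak. The interval treats all 22 as separate. However, the windows of PITPNB and TTC28-AS1 overlap and share a half-site, and TOP2B and TAOK1 each have more than 1 window. The full CRE was in 3 of 22 (13.6%, interval 2.91 to 34.9%), against 1.85% of all windows and 3.39% of those in any listed peak. GGGCGG was in 18 (81.8%), against 45.0% and 73.7%, CCAAT in 6 (27.3%, against 34.6% and 34.1%), and TGACTCA in 1 (4.55%, against 4.95% and 2.51%). The windows had a median GC content of 71.8%, against 58.7% over all windows and 66.3% over those in any listed peak. The share of windows with the half-site was therefore like that of other gene starts in listed peaks, and the full CRE rests on 3 windows.

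**Figure D5:**
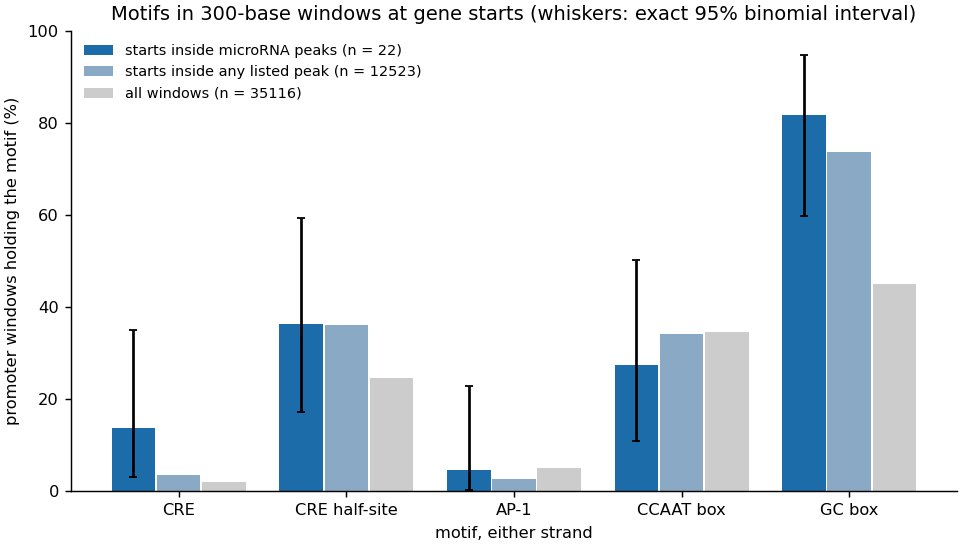
Share of 300-base promoter windows (y axis, %) that hold each motif on either strand, for gene starts inside microRNA peaks (whiskers: exact 95% intervals), inside any listed peak, and for all windows. The GC box is in most windows of the first 2 groups (81.8% and 73.7%), and the full CRE in 13.6% and 3.39%.

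Half-sites close to the summit were seen at several starts, while the nearest were 171 bp away at MIR6875 and 427 bp away at MIR132. How close half-sites lie to summits over all listed peaks was not computed. At MIR564, the TMEM42 window had a half-site 1 bp from the summit and another 17 bp away. At MIR3199-2, a half-site 4 bp from the summit lay in the windows of both PITPNB and TTC28-AS1, a pair of genes on opposite strands. At MIR4523, the TAOK1 window had half-sites 44 and 157 bp from the summit, and at MIR4442 the nearest TOP2B half-site was 69 bp away. In the MIR210HG window neither the half-site nor the full CRE was found, and GGGCGG was found 4 times.

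MIR210 is best known for its rise under low oxygen. Its peak (chr11:566926-570158) held 582 tags at 8.05-fold, with the summit 396 bp upstream of the microRNA gene and 137 bp from the MIR210HG start. The peak at MIR130B had 296 tags and 7.58-fold, with the summit 1144 bp upstream of the microRNA gene, and covered MIR301B as well. The mature strands of miR-130b and miR-301b share a seed, which differs from that of miR-210.
hsa-miR-210-3p: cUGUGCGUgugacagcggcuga
hsa-miR-130b-3p: cAGUGCAAugaugaaagggcau
hsa-miR-301b-3p: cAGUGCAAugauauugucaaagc

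Some peaks covered several microRNA genes under 1 name. In 9 peaks, 14 microRNA genes other than the named one were overlapped, and in 6 of these peaks another microRNA was closer to the summit. The peak at MIR4539 overlapped MIR4507 and MIR4538 but did not reach MIR4539 itself. At MIR4520-2 the closer gene, MIR4520-1, encloses it, so the distances differ little (389 and 398 bp). The summit of the peak at MIR183, of a sensory-organ cluster that is often high in carcinomas, was 336 bp from MIR183 and 123 bp from MIR96 (157 tags, 4.89-fold). The peak at MIR27A had its summit inside MIR27A and 88 and 140 bp from MIR23A and MIR24-2 (109 tags, 4.04-fold). These 3 come from 1 transcript, MIR23AHG, and have different seeds, shown in capitals.
hsa-miR-23a-3p: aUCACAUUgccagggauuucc
hsa-miR-27a-3p: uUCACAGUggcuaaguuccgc
hsa-miR-24-3p: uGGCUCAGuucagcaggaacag

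Over the 64 members with an entry in the RefSeq microRNA table, 84 mature strands with 83 distinct seeds were found. Only miR-3180, made by both MIR3180 members, gave 1 seed to more than 1 member. Of the member seeds, 22 were also those of another microRNA gene, for instance that of miR-27a-3p, shared with MIR27B, and that of miR-185-5p, shared with MIR4306. The share over all microRNA seeds was not computed, so this count is only a description. Apart from the MIR3180 pair, no members in that table shared a seed.

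In the imprinted DLK1-DIO3 microRNA domain of chromosome 14, picked after the values were seen, 4 members lay. MIR493, MIR337, MIR1193 and MIR656 lie within 197.7 kb of each other (chr14:100869060-101066801), where 51 microRNA genes are annotated. Their peaks had 26, 48, 28 and 77 tags and 11.05-, 8.03-, 8.59- and 4.01-fold enrichment. All 4 were under 100 tags, as 36.5% of all listed peaks were, and 3 of their fold enrichments were above the median of all listed peaks. A listed summit lay within 2 kb of 14 of the 51 (27.5%). These summits belong to 5 listed peaks, those of the 4 members and that named for RTL1. The span was set to run from MIR493 to MIR656, both members. Its share can therefore not be compared with the 15.6% of all annotated microRNA genes. Of the 70, MIR493 and MIR337 were the only members within 10 kb of another member, and no group of 3 was found. At the immunoglobulin loci, also picked afterwards, MIR8071-1 (30 tags, 8.03-fold), MIR4539 (66 tags, 4.41-fold) and MIR5571 (45 tags, 6.69-fold) were listed.

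Chromosome 14 carried 11 members among its 99 annotated microRNA genes (11.1%), and chromosome 22 carried 5 among 46 (10.9%), beside 3.66% over all chromosomes. A listed summit lay within 2 kb of 28.3% and 30.4% of their microRNA genes. Chromosome X carried none of its 118, which allows a share of up to 2.54% (3 counts of the total), and chromosomes 4, 6, 13 and 21 none of 63, 71, 40 and 29. Chromosome 19, with 142 microRNA genes, had 3 members, MIR4530, MIR150 and MIR27A. These counts depend on which gene each peak was named for.

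The 70 named genes were a small part of the microRNA genes near ATF1 peaks. Of 1913 annotated microRNA genes, 3.66% (interval 2.86 to 4.60%) were named, while 299 (15.6%, interval 14.03 to 17.3%) had a listed summit within 2 kb. The other 229 lay near a peak named for another gene, with medians of 220 tags and 6.41-fold; 17 of them were nearest to a member's summit and 12 to one named for a host gene. These medians are over genes, so a peak near several genes counts several times, and the 17 bring in peaks of members. They are therefore not comparable with the median of 112 tags over the named peaks. The strongest of the 229 were MIR3651 (35.68-fold, in the peak named for IARS), MIR4512 (33.71-fold, SNAPC5) and MIR3175 (32.34-fold, CHD2), chosen after their values were seen.

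The 13 lists of familiar microRNAs, with 111 genes in all, held 6 members, and 29 of the 111 had a listed summit within 2 kb. Both genes of the miR-132 and miR-212 list had one (1 as a named member), that of the peak at MIR132. The lists of miR-23, miR-24 and miR-27 (3 of 6), of the miR-15 and miR-16 family (4 of 8), of the HOX clusters (3 of 6) and of neuronal microRNAs (4 of 10) followed. MIR23A, MIR24-2 and MIR27A were all near the summit named for MIR27A. Those of the miR-15 and miR-16 family were MIR195 and MIR497, near the summit named for MIR497HG, and MIR424 and MIR503, near that named for MIR503HG. Genes that share a summit, as MIR183 and MIR96 also do, are not separate cases. Neuronal MIR129-2 was a member with 63 tags and 4.46-fold, and MIR9-1 was 1442 bp from a summit of 18.49-fold that is named for C1orf61. Among colorectal cancer microRNAs, 4 of 14 had a summit near, MIR183, MIR96, MIR210 and MIR135B, and 2 of them were members.

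In the other tissue and family lists, MIR150 was the only named member. Of intestinal and epithelial microRNAs, 1 of 12 (MIR375, 3.35-fold) had a summit within 2 kb, of hepatocyte and blood microRNAs 2 of 7 (MIR150 and MIR142), of muscle microRNAs 0 of 6 and of the miR-29 and miR-30 families 0 of 10. The let-7 family had 2 of 12 (MIRLET7I at 7.51-fold and MIRLET7E at 4.80-fold), the miR-17-92 cluster and its paralogs 3 of 15, all near the summit named for MIR17HG (5.38-fold, 532 tags), and miR-34 1 of 3. With so few genes a list, these counts are descriptions, beside 15.6% of all annotated microRNA genes. RNA was not measured, so the counts say nothing of expression.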

How the data were processed

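The deposited table of the 1 ChIP library gives each peak's position, summit, tags, score, fold enrichment, gene and class. Per the file headers, tags are deposited as raw counts in each peak. The deposited fold enrichment is a ratio from the authors with no stated denominator, and the deposited score has no stated basis. The tools CASAVA, Bowtie2 and bedtools and the build hg38 come from the submitters' processing notes. Peak caller, control and annotation: not given in the sources used here. Library depth is unknown. 1 line without a position was left out.

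Genes, hairpins, mature strands and promoter windows came from RefSeq (GRCh38.p14, the assembly of hg38). No promoter window of a microRNA gene itself was used; the planned motif search was run on windows of genes that start inside the peaks. Gene ends were those of 19974 protein-coding genes, within 1 kb of the summit. Intervals are exact Clopper-Pearson or Poisson 95% intervals, and for medians exact binomial intervals over peaks; they cover counting error only. Named were the 10 highest and 3 lowest fold enrichments, the 5 highest tag counts, the 5 strongest over 10 kb from gene ends, up to 5 at gene ends, members of clusters, shared seeds, and up to 4 per microRNA list; others are said to be chosen after their values were seen, or serve as examples of a stated position. Members and lists were chosen with earlier results of these data known. Functions were checked on simulated data. Python 3.11.15, numpy 2.4.6, pandas 2.3.3, scipy 1.17.1 and matplotlib 3.10.9 were used.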

Additional observations from a re-analysis of the deposited data

How the results depend on the processing

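Of 30 recomputed values, 22 stayed within the interval of the reported value (counts within 1.5 times), and 8 moved beyond it. With only peaks scoring at or above the table's median, the 70 peaks fell to 26, with a median of 10.43-fold and 317 tags and 57.7% within 1 kb of a protein-coding gene end. With host gene names counted, 74.2% lay outside their gene. With a 5 kb window, 58.6% were near a gene end. Counting any summit within 2 kb put 15.6% of annotated microRNA genes near a peak. The full CRE in place of its half-site was in 13.6% of windows. Leaving out the members found to share a mature sequence with other genes, an alternative chosen after seeing the data, moved none of the 5 values it was run on. Why these 8 moved was not tested. No paired analysis was possible because there is 1 ChIP library. Depth is unknown, so a microRNA gene without a listed peak may still be bound.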

Other observations

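Peaks named for microRNA host genes, which the naming rule leaves out, were 19, with a median of 5.04-fold enrichment and 118 tags. Of these 15 were intronic, and 1 was at least 10-fold: MIR22HG, the host transcript of miR-22, with 18.82-fold and 781 tags (chr17:1713880-1717208), upstream of the gene. MIR17HG, host of the miR-17-92 cluster, had 532 tags and 5.38-fold.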
